A study of Rattus norvegicus with 24 samples.

Results

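The thyroid of rats given an iodine-deficient diet together with perchlorate in the drinking water was compared with the thyroid of untreated rats at day 14. The arrays were chosen by their titles: 3 arrays labelled iodine-deficient diet and perchlorate water (replicates 27, 29 and 30, called the combined group) and 3 labelled normal diet and normal water (replicates 43, 44 and 47, the controls), which make 6 of the 24 arrays of the series. All animals were adult male Sprague-Dawley rats, housed for 2 months and 14 days, and no allele or transgene is named in the labels. The combined group was fed the deficient diet over that whole time and drank water with potassium perchlorate at 95 mg per liter for the last 14 days. The controls had neither. For reference, 3 arrays of day 14 from rats given perchlorate alone on a normal diet (replicates 39, 40 and 42), 3 from rats on the deficient diet alone (replicates 32, 33 and 34), and the combined and control arrays of day 1 (3 each) are used where a direct difference was tested. The labels leave unsaid whether arrays stand for different animals. The p-values therefore reflect the spread among arrays within groups, pooled over all 24 arrays of the series, part of which may be technical.

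Thyroid follicular cells take up iodide through the sodium iodide symporter, attach it to tyrosines of thyroglobulin at their apical surface and release thyroid hormone when thyroglobulin is digested. Perchlorate competes with iodide at the symporter, while an iodine-poor diet lowers the amount of iodide that reaches it. When hormone falls, the pituitary secretes more thyrotropin (TSH), whose receptor on follicular cells acts mainly through cyclic AMP, and a long rise of TSH is known to enlarge the gland with its blood vessels and stroma.

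Each value below is a level on the scale log2(intensity + 16) after quantile normalization, and each fold change is a difference of means of 3 arrays on that scale, which understates changes of dim probe sets. Values of single arrays are always given in the order 43, 44 and 47 for controls and 27, 29 and 30 for the combined group. Where a gene had more than 1 probe set, its brightest was used. A gene was called when its adjusted p in limma (a linear model fitted to all probe sets, with Benjamini-Hochberg adjustment) was under 0.05.

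Of 18625 probe sets tested, 1649 were called between the combined group and the controls (8.85%), 1137 of them higher (6.1%) and 512 lower (2.75%). By gene the count was 1142 of 10643 (10.7%), with 808 higher (7.59%) and 334 lower (3.14%). These shares are the background for the counts of each gene list below. More than 4-fold differences were found for 77 genes that rose and 8 that fell. The median difference over all 10643 genes was -0.06. The arrays of the 2 groups did not overlap at 36.9% of the probe sets tested. Without 1 array at a time the count of probe sets was 815 (without replicate 27), 927 (without 30), 1033 (without 43), 1016 (without 44) and 1096 (without 47), and 1358 without 29. Pearson correlations over probe sets were 0.972 to 0.980 within the 2 groups and 0.931 to 0.952 between them, and no pair of arrays held identical values. Arrays outside these groups also set the shared estimate of spread. Measured against the median of all remaining arrays, the median absolute deviation was 0.162 to 0.208 in these 6, 0.287 in day 1 control replicate 22 and 0.675 in day 1 perchlorate replicate 18. Without those last 2 arrays the count was 3275, with 53.8% higher in place of 69.0%, and all 1649 probe sets were among them.

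**Figure D1:**
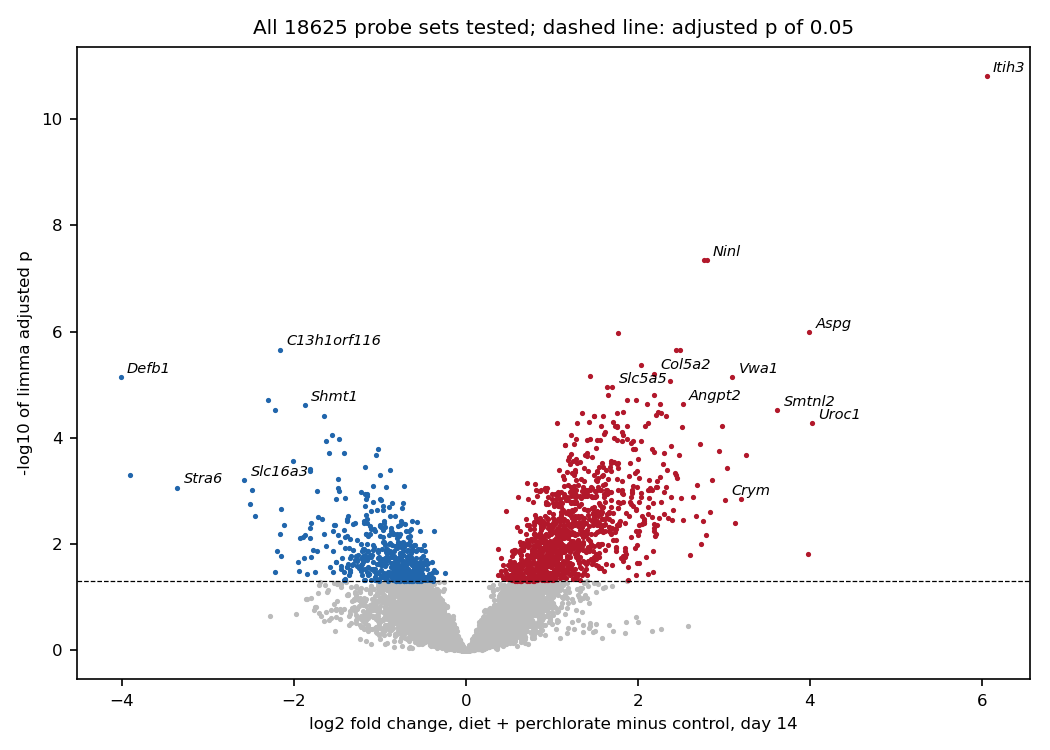
Log2 fold change (x axis) against -log10 of the limma adjusted p (y axis) for the 18625 probe sets tested between the combined group and the controls of day 14, 3 arrays each. Red points are the 1137 called higher, blue points the 512 called lower, and gray points those not called. Itih3 lies farthest from the rest at 6.06, and Defb1 has the largest fall at -4.01.

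The promoters of 4 mitotic genes are shown first, because the mitosis list below held 26 called genes among 32 measured and shares short promoter elements that the array values did not choose. The sequences are from RefSeq, assembly GRCr8, written 5′ to 3′ on the gene's strand, from 250 bases before to 30 bases after the annotated start. Capitals mark TTTGAA, the core of the cell cycle genes homology region, and CCAAT, the core of the box bound by the NF-Y factor, on either strand (TTCAAA and ATTGG are the reverse complements). The 4 are the called members with the largest rises whose entry holds both elements, a choice made after their values were seen. Mki67 lies at chr1:199952564-199952843 on the minus strand, Cdkn3 at chr15:22502136-22502415 on the plus strand, Ttk at chr8:93634389-93634668 on the plus strand and Spc25 at chr3:74396689-74396968 on the minus strand.

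Mki67: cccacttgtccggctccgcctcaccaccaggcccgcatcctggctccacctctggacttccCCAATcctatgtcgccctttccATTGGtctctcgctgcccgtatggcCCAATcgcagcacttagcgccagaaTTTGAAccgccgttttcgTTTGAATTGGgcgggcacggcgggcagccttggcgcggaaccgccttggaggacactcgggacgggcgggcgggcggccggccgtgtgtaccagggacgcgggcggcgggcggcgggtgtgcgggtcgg
Cdkn3: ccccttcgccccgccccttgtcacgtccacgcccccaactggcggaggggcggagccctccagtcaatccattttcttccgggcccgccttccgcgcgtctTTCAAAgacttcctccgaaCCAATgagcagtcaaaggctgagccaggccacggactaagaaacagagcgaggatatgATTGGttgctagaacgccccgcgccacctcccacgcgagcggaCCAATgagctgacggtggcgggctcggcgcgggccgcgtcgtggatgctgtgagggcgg
Ttk: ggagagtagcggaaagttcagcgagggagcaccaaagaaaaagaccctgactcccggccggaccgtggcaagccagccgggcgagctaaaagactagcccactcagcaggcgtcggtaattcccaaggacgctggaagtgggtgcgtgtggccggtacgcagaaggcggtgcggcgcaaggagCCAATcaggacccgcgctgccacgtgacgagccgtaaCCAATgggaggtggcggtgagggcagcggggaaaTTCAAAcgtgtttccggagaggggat
Spc25: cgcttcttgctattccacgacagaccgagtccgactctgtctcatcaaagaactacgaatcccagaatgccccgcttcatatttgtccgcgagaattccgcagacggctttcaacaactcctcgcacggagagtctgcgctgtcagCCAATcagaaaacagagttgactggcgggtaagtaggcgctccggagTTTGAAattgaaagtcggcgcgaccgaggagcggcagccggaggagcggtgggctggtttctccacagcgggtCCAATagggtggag

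Elements were counted over whole promoter entries, which run 20 bases further past the start than the windows printed above. TTTGAA was found in 20 of the 27 mitosis promoters with an entry (74.1%), against 18.1% of all 27457 promoters. Among DNA replication genes 2 of 20 promoters held it, and among interstitial matrix genes 0 of 17. CCAAT was found in 20 of 27 mitosis promoters (74.1%) and in 13 of 20 DNA replication promoters (65.0%), against 37.7% of all and 4 of 17 matrix promoters (23.5%). The mitosis promoters with both elements numbered 17. In the Mki67 window above, one TTTGAA overlaps an ATTGG, so those letters form 1 run of capitals. A match is a stretch of letters, and no binding was measured here. TGACGTCA, the cyclic AMP response element, was found in 3 of 9 promoters of immediate early genes (33.3%) and in 1.91% of all promoters, and in 0 of the 27 mitosis promoters.

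Among the genes of iodide handling and hormone synthesis, Slc5a5, the sodium iodide symporter itself, was the only called member of 9 measured. Its level was 11.22, 10.62 and 10.99 in controls and 12.45, 12.74 and 12.75 in the combined group. All 3 combined arrays lay above all controls, and the rise was 1.70 (SE 0.19, 3.25-fold, limma adjusted p 1.12e-05). Thyroglobulin (Tg), the protein on which hormone is made, was at 13.78, 13.69 and 13.82 in controls and 13.98, 13.91 and 13.94 in the combined group. The 2 sets did not overlap, yet the difference of 0.18 (SE 0.10) did not pass the test (limma adjusted p 0.317), and it turned to -0.10 when both Tg probe sets were averaged.

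The genes that make hydrogen peroxide for iodination were not called. Duoxa1, its maturation factor, differed by -0.70 (limma adjusted p 0.0992), with 10.11, 9.70 and 9.67 in controls and 9.12, 9.17 and 9.07 in the combined group. Duox2, the oxidase, differed by -0.39 (limma adjusted p 0.319). Under alternatives, Duoxa1 was called lower in 4 of 18 and Duox2 in 3 of 18. With only the groups compared in the fit, 2 members of the list were called lower. The 5 other members measured were Iyd, the iodotyrosine deiodinase that recycles iodide (-0.08), the deiodinase Dio1 (0.34), the anion channel Ano1 (0.03), the potassium channel Kcnq1 (0.03) and the TSH receptor Tshr (0.01), and the 3 Tshr values of the combined group (9.95, 9.19 and 10.08) enclosed all 3 controls. The list's median difference was 0.03 with 1 of 9 called, beside 10.7% called and a median of -0.06 over all genes. The iodide exchanger Slc26a4 and the deiodinase Dio2 were below the limit on dim probe sets and were not tested.

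Of 5 thyroid transcription factors and related genes measured, Cdh16, a cadherin of follicular cells, rose by 1.24 (SE 0.21, limma adjusted p 0.000955). Foxe1, a forkhead factor needed for thyroid development, fell by 0.51 (limma adjusted p 0.0223), and this call was lost under 6 of 18 alternatives. Nkx2-1 (-0.38), Pax8 (-0.04) and Hhex (-0.07) were not called. The summed intensity of 7 follicular cell markers was 34700 to 36200 in controls and 36300 to 37500 in the combined group. Every combined sum lay above every control sum by a narrow margin, while 3 of the 7 markers differed upward and 4 downward.

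Downstream of the TSH receptor, 2 of 18 measured genes were called, both higher, which is 11.1% beside 10.7% of all genes. Both encode phosphodiesterases, the enzymes that break down cyclic AMP. Without replicate 30 the count was 1. Pde4b was at 8.85, 8.84 and 9.001 in controls and 10.27, 10.24 and 10.51 in the combined group, a rise of 1.44 (SE 0.15, limma adjusted p 6.75e-06). Pde8a rose by 0.71 (SE 0.17, limma adjusted p 0.00846). For each of these, 1 of 2 probe sets was called. Of 14 immediate early genes, transcription factors induced within minutes by many signals, 3 rose (21.4%, beside 7.59% of all genes). Egr2 rose by 1.27, Atf3 by 1.41 and Fos by 1.25 (limma adjusted p 0.00317, 0.00548 and 0.0356), with a list median of 0.63. The Fos call was lost under 7 of 18 alternatives. Jun differed by 1.02 at its brightest probe set (limma adjusted p 0.0712), although 2 of its 3 probe sets were called higher.

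Of 10 measured thyroid hormone receptors and responsive genes 1 was called higher and 4 lower, beside 7.59% and 3.14% of all genes. Of the 10 differences 9 were negative. Crym, which encodes a cytosolic protein that binds triiodothyronine, was at 8.34, 7.22 and 6.37 in controls and 10.51, 9.94 and 10.52 in the combined group. Its control arrays were spread over almost 2 units and still lay below every combined array, and the rise was 3.01 (SE 0.56, limma adjusted p 0.00145). Among genes known to be induced by thyroid hormone, Thrsp, a factor of fat synthesis, fell by 1.27, Klf9, a transcription factor, by 0.53, and Hr, a nuclear corepressor, by 0.83 (limma adjusted p 0.0257, 0.0302 and 0.0166). Rxrg, a retinoid X receptor, fell by 1.18 (limma adjusted p 0.0479). These 4 falls rest on few arrays: without any 1 of the 6 arrays, at most 2 of the list were called lower, and none without replicate 30 or replicate 44. The receptors Thra (-0.33) and Thrb (-0.57) were not called.

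Itih3 gave the largest rise of all. Its product is an inter-alpha-trypsin inhibitor heavy chain, a plasma protein that is transferred onto hyaluronan. Its level was 7.20, 7.21 and 7.27 in controls and 13.27, 13.19 and 13.39 in the combined group, a difference of 6.06 (SE 0.28, 66.6-fold, limma adjusted p 1.52e-11). Both groups were tight, with a gap some 6 units wide between them. Of 7 measured hyaluronan and inter-alpha-trypsin inhibitor genes 4 rose, with Itih3 followed by the scavenger receptor Stab1 (1.54), the lymphatic hyaluronan receptor Lyve1 (1.57) and Hmmr (1.31). The hyaluronan synthase Has2 differed by 0.11 and the receptor Cd44 by 0.47, neither called, and the other heavy chain genes Itih1, Itih2 and Itih4 were below the limit on dim probe sets.

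Next in size came 2 enzymes of amino acid breakdown. Uroc1, the urocanate hydratase of histidine degradation, was at 6.10, 5.11 and 5.25 in controls and 9.44, 8.54 and 10.53 in the combined group (a rise of 4.02, SE 0.52, limma adjusted p 5.22e-05). Aspg, an asparaginase, was at 4.59, 4.62 and 4.80 in controls and 8.56, 8.82 and 8.61 in the combined group (a rise of 3.99, SE 0.35, limma adjusted p 1.02e-06). Neither gene's groups overlapped, which was a condition for naming the largest rises. All controls of both genes lay under 6.19, so these genes passed the limit on dim probe sets only through groups where they were high. With the pseudocount at 64 and at 1 in place of 16, the rise was 2.62 and 5.24 for Aspg and 3.06 and 4.62 for Uroc1. The folate enzymes moved apart: Shmt1, the cytosolic serine hydroxymethyltransferase, fell by 1.87 (limma adjusted p 2.42e-05), while Mthfd2, a mitochondrial methylene-tetrahydrofolate dehydrogenase, rose by 1.61 (limma adjusted p 0.0132). Asparagine synthetase (Asns) fell by 0.55 (limma adjusted p 0.032), a call lost under 8 of 18 alternatives. The controls of Mthfd2 also lay under 6.19.

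**Figure D2:**
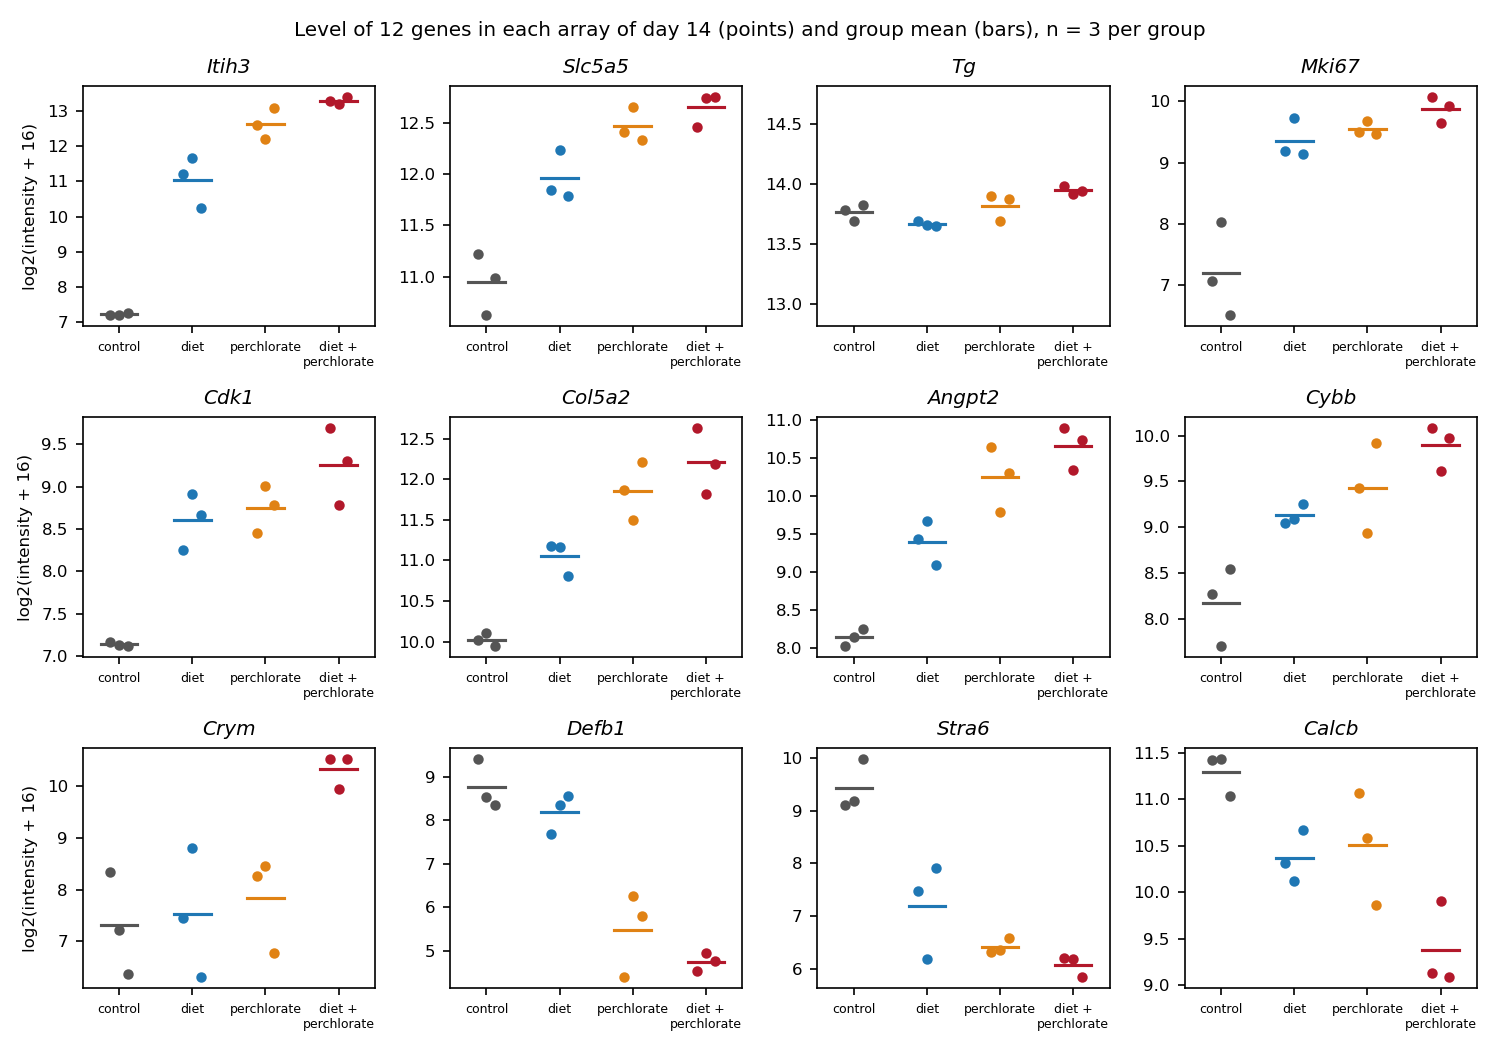
Level of 12 genes as log2(intensity + 16) in each of the 12 arrays of day 14 (points, 3 per group) with group means as bars: control, diet alone, perchlorate alone and both. Panels have their own y axes. In the combined group Itih3, Slc5a5, Mki67, Cdk1, Col5a2, Angpt2, Cybb and Crym lie above every control, Defb1, Stra6 and Calcb lie below every control, and Tg moves by less than 0.2.

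The remaining large rises came from varied families. Smtnl2, a smoothelin-like protein, rose by 3.62, the macrophage metalloelastase Mmp12 by 3.25, Col5a3, a fibrillar collagen chain, by 3.19, the protease inhibitor A2ml1 by 3.12 and Vwa1, a matrix protein with a von Willebrand domain, by 3.10. Apln, the ligand of the apelin receptor on endothelium, rose by 3.04, Cthrc1, a secreted protein of activated fibroblasts, by 2.98, the somatostatin receptor Sstr1 by 2.94 and Lbp, a lipopolysaccharide-binding protein, by 2.86. Ass1, the argininosuccinate synthase, rose by 2.84 and Ninl, a centrosomal protein, by 2.80. The limma adjusted p of these 11 ran from 4.46e-08 (Ninl) to 0.00404 (A2ml1). In each case all combined arrays exceeded all controls, which was a condition for naming them. Across 17 alternatives the rise of Col5a3 ran from 2.002 to 4.335 and that of Smtnl2 from 2.815 to 4.076. Mmp12 ran from 2.409 to 3.762 and A2ml1 from 2.296 to 3.601, so the ranks among these genes are not firm.

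Of 32 measured mitosis and cytokinesis genes 26 rose, 0 fell, and the median difference was 1.72, beside 7.59% of all genes called higher and a median of -0.06. Mki67, a nuclear protein of cycling cells, was at 7.06, 8.04 and 6.51 in controls and 10.07, 9.64 and 9.92 in the combined group, a rise of 2.68 (SE 0.54, limma adjusted p 0.00298). Cdk1, the kinase that starts mitosis, was at 7.17, 7.14 and 7.12 in controls and 9.69, 8.78 and 9.30 in the combined group, a rise of 2.12 (SE 0.37, limma adjusted p 0.000955). Neither gene overlapped between groups, and for Cdk1 the controls were almost equal while the combined arrays spread over almost 1 unit.

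Ccna2, the cyclin of S phase and early mitosis, rose by 2.50, the kinase Melk by 2.45, the Cdk1 phosphatase Cdkn3 by 2.22 and the spindle midzone protein Prc1 by 1.86 (limma adjusted p 0.00136, 0.000571, 0.000847 and 0.00258). Of the genes whose promoters are printed above, Ttk, a spindle checkpoint kinase, rose by 2.19 and Spc25, a kinetochore subunit, by 2.19 (limma adjusted p 0.00708 and 0.00507). In replicate 29 each of these 8 genes was lowest of the combined arrays: Ccna2 was 8.47, 7.50 and 8.29, and Prc1 10.17, 9.22 and 9.59. The mean of the Ccna2 controls lay under 6.19, so it passed the limit on dim probe sets only through groups where it was high. Across 17 alternatives its rise ran from 1.731 to 2.995. The number of mitosis genes called stayed between 20 and 25 when single arrays were left out. With the filter at the 60th percentile, 15 of the list were measured and 14 of them rose.

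Of 21 measured DNA replication genes 8 rose, 0 fell and 13 were not called. The median was 0.59, and all 21 differences were positive. The topoisomerase Top2a rose by 2.00, the helicase subunits Mcm3 and Mcm5 by 1.15 and 1.14, and Gins1, a subunit of the replicative helicase complex, by 1.49 (limma adjusted p 0.0103, 0.0133, 0.0143 and 0.00316). This count rested on single arrays: it was 1 without replicate 27 or replicate 47, and 4 without replicate 30, 43 or 44. Of 15 G1 cyclins and cell cycle inhibitors 3 rose (20%, beside 7.59% of all genes). They were the inhibitor Cdkn2c (0.86), cyclin E1 (Ccne1, 0.81) and the factor E2f1 (0.89). Cyclin D1 (Ccnd1), a target of growth signals, differed by 0.54 without being called. The G1 count was 0 without replicate 27 or replicate 44, 1 without replicate 30 or replicate 47.

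The insulin-like growth factor system changed mainly in its binding proteins, which hold the growth factors outside cells. Igfbp3 was at 9.26, 9.54 and 9.53 in controls and 12.28, 10.94 and 12.04 in the combined group, a rise of 2.31 (SE 0.34, limma adjusted p 0.000194). Replicate 29 was again the lowest combined array, but above all controls. Igfbp2 rose by 1.53 and Igfbp7 by 0.71, while Igfbp5 fell by 1.02 (limma adjusted p 0.000429, 0.000717 and 0.035), the last call being lost under 6 of 18 alternatives, among them the fits without replicate 27, 29, 30, 44 or 47. The ligand Igf1 differed by 0.57 and was not called. In all, 3 of 10 genes rose and 1 fell.

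Interstitial matrix genes rose broadly, with 23 of 32 called higher, 0 lower and a median of 1.29. Col5a2, a chain of the collagen that nucleates fibrils, was at 10.03, 10.11 and 9.94 in controls and 12.63, 11.81 and 12.18 in the combined group, a rise of 2.19 (SE 0.23, limma adjusted p 6.17e-06). Lox, the oxidase that crosslinks collagen and elastin, was at 8.32, 8.33 and 8.43 in controls and 11.13, 9.59 and 10.18 in the combined group, a rise of 1.94 (SE 0.27, limma adjusted p 0.000114). For both genes the controls were within 0.2 of each other, and replicate 27 was highest and replicate 29 lowest of the combined arrays. Fibrillin (Fbn1) rose by 2.19, biglycan (Bgn) by 1.83, elastin (Eln) by 1.62, Col3a1 by 1.15 and Col1a1 by 1.39.

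Basement membrane genes, which encode the sheet under epithelium and endothelium, were called higher for 12 of 18 and lower for 1, with a median of 1.10. The collagen IV chains Col4a1 and Col4a2 rose by 1.81 and 1.82, the endostatin precursor Col18a1 by 2.72 and the linker Nid1 by 1.94 (limma adjusted p 7.92e-05, 0.000114, 0.00013 and 0.000165). With both Nid1 probe sets averaged its rise was 0.775. The laminin chains split: Lama4, Lamb1 and Lamc1 rose by 1.59, 1.36 and 1.41, whereas Lamb3, a chain of an epithelial laminin, was at 7.45, 7.43 and 7.37 in controls and 6.24, 5.85 and 5.94 in the combined group, a fall of 1.41 (SE 0.26, limma adjusted p 0.00136). Lamb3 was the single member of the list that fell.

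Markers of fibroblasts and pericytes moved with these matrix genes: 9 of 12 rose (median 1.20), and their summed intensity was 22900 to 34000 in controls and 40300 to 49900 in the combined group. The list shares Col1a1, Col1a2, Col3a1, Dcn and Lum with the matrix list. Rgs5, a pericyte regulator of G protein signalling, rose by 2.33 and Thy1, a fibroblast surface protein, by 2.04 (limma adjusted p 0.000409 and 0.00132). The part of cell number in the matrix values was not tested. In RNA from whole glands, more cells of a type and more RNA per cell cannot be told apart, and the same holds for fewer cells and less RNA.

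Of 22 measured angiogenic ligands and receptors 10 rose and 1 fell, with a median of 0.76. Angpt2, the ligand that destabilises vessels through the Tie2 receptor, was at 8.02, 8.14 and 8.25 in controls and 10.89, 10.34 and 10.73 in the combined group, a rise of 2.52 (SE 0.30, limma adjusted p 2.35e-05). Among receptors, Tek (Tie2) rose by 0.81, the VEGF receptors Flt1 and Kdr by 1.55 and 0.93, and the neuropilin Nrp2 by 0.73 (limma adjusted p 0.0242, 0.0107, 0.0474 and 0.0305). Dll4, a Notch ligand of sprouting tips, rose by 1.08 and the hypoxia factor Epas1 by 1.10. Angpt4, another Tie2 ligand, fell by 1.15 (limma adjusted p 0.0338). The number of rises was 4 without replicate 27 or replicate 43 and 5 without replicate 30, and the Angpt4 fall was lost without any 1 of the 6 arrays.

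Of 15 endothelial markers 9 rose (median 0.99). All 15 had no overlap between groups, beside 36.9% of the probe sets tested. Vwf, the von Willebrand factor, was at 7.67, 8.53 and 8.32 in controls and 10.99, 10.63 and 10.96 in the combined group, a rise of 2.69 (SE 0.46, limma adjusted p 0.000777). The TGF-beta coreceptor Eng rose by 1.91 and the transcription factor Sox18 by 1.59. Summed endothelial intensity was 14500 to 18000 in controls and 33000 to 34600 in the combined group, and its part in the angiogenic values was not tested. The endothelial count was 6 without replicate 43 or replicate 44, so that it moved by 1.5 times.

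Macrophage markers rose in 10 of 12 measured (median 1.30). Cybb, the phagocyte oxidase, was at 8.27, 7.70 and 8.54 in controls and 10.09, 9.62 and 9.98 in the combined group, a rise of 1.73 (SE 0.24, limma adjusted p 0.000103). The surface receptors Adgre1 and Mrc1 rose by 1.35 and 1.26, and the complement genes C1qa, C1qb and C1qc by 1.75, 1.43 and 1.34. Summed macrophage intensity was 5100 to 7630 in controls and 11500 to 16100 in the combined group, while Itgam and Cx3cr1 were below the limit on dim probe sets. Without replicate 27 the count was 6. Of 18 lysosome and cathepsin genes 3 rose (16.7%, beside 7.59% of all genes). They were Ctss (1.87), a cathepsin of antigen-presenting cells, Ctsh (1.35) and Ctsc (0.57), and the Ctsc call was lost under 9 of 18 alternatives. The part of macrophages in these rises was not tested.

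Other immune lists gave few calls. Of 7 mast cell markers Tpsab1, a tryptase, rose by 2.40 (limma adjusted p 0.00358), and summed intensity was 1110 to 1520 in controls and 1940 to 3780 in the combined group. No MHC class II gene of 8 was called by limma, and 4 were called higher with only these 6 arrays in the fit. RT1-Bb was at 8.01, 8.35 and 8.52 in controls and 5.73, 6.06 and 9.27 in the combined group, with replicate 30 above every control and the other combined arrays below. The 3 lymphocyte markers measured were high in replicate 29: Cd3d was at 6.16, 5.96 and 4.39 in controls and 6.20, 9.76 and 6.50 in the combined group, and Cd3g was at 7.16, 10.22 and 6.62 in the latter. None of the 3 was called (limma adjusted p 0.241 to 0.292). All 3 had every combined array above every control, while 36.9% of the probe sets tested had no overlap in either direction. For Cd3d the gap was narrow (6.16 against 6.20), and all its controls lay under 6.19, the limit on dim probe sets. The median difference of the 3 markers was 1.87 with replicate 29 and 0.756 without it.

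**Figure D3:**
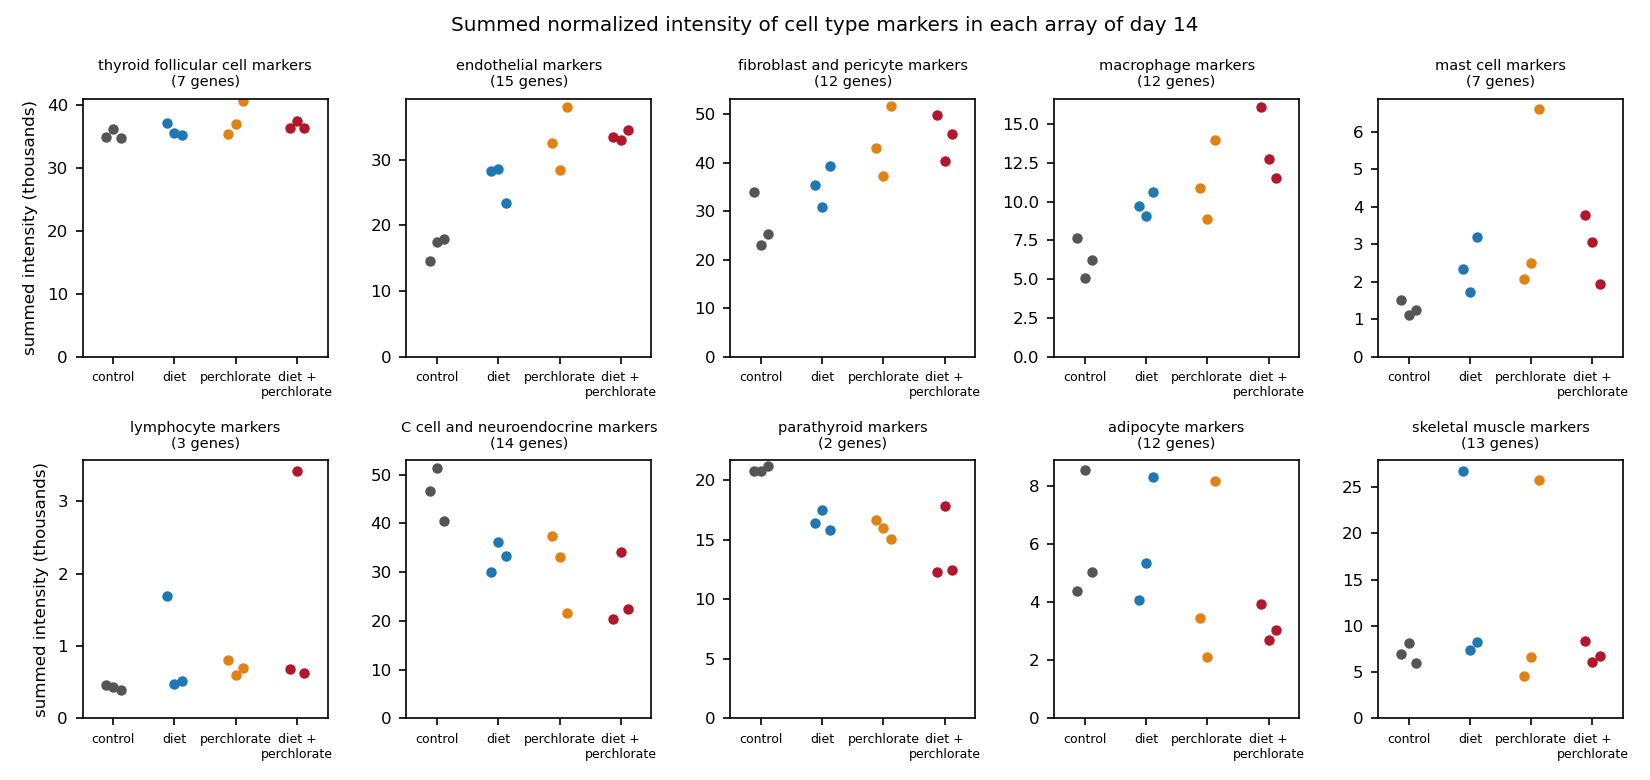
Summed normalized intensity (y axis from 0) of the measured markers of 10 cell types in each of the 12 arrays of day 14, by group. Follicular, endothelial, fibroblast and pericyte, macrophage, mast cell and lymphocyte sums of the combined group lie above every control, the follicular sums narrowly. C cell, parathyroid and adipocyte sums lie below, and 1 combined array stands high in lymphocyte markers.

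Among falls, Defb1, an epithelial antimicrobial peptide, was largest. It was at 9.40, 8.54 and 8.34 in controls and 4.53, 4.95 and 4.76 in the combined group, a fall of 4.01 (SE 0.43, 16.1-fold, limma adjusted p 7.24e-06). With the pseudocount at 1 and at 64 the difference was -5.18 and -2.69, and all combined arrays lay under 6.19, the mean level required of a probe set. Of 17 epithelial keratin, junction and surface genes 6 fell and 0 rose, with a median of -0.40 beside 3.14% of all genes called lower. Ezr, which ties microvilli to actin, fell by 0.72, the orphan receptor Gprc5a by 1.87, keratin 19 (Krt19) by 1.38, the desmosomal Pkp2 by 0.82 and the claudin Cldn3 by 0.90. The number was 3 without replicate 27.

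Genes of retinoid handling diverged, with 3 of 13 lower and 2 higher (38.5% called, beside 10.7% of all genes). Stra6, the membrane receptor that imports retinol, was at 9.11, 9.19 and 9.98 in controls and 6.19, 6.18 and 5.83 in the combined group, a log2 difference of -3.35 (SE 0.58, limma adjusted p 0.000864), and 4 of its 4 probe sets were called lower. Aldh1a3, which makes retinoic acid, was at 9.92, 11.02 and 11.48 in controls and 8.64, 8.05 and 8.27 in the combined group. Its fall was 2.48 (SE 0.43, limma adjusted p 0.000964). Neither gene's groups overlapped, which was a condition for naming the largest falls. The retinoic acid binding protein Crabp1 fell by 1.73, while Cyp26b1, which degrades retinoic acid, and Aldh1a2, another retinaldehyde dehydrogenase, rose by 1.85 and 1.15 (limma adjusted p 0.0133, 0.0174 and 0.0292). Both of these rises were lost without replicate 27, 43 or 44.

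Other large falls were those of Slc16a3, a monocarboxylate transporter that exports lactate (-2.57), Obp3, an odorant-binding lipocalin (-2.45), Pla2g10, a secreted phospholipase (-2.19), and C13h1orf116 (-2.16). Ptges, a prostaglandin E synthase, differed by -1.85, Ces1d, a carboxylesterase, by -1.82, and Gna14, a G protein alpha subunit of the Gq class, by -1.81. Their limma adjusted p ran from 2.18e-06 (C13h1orf116) to 0.0367 (Ptges, 1 of 2 probe sets, lost under 7 of 18 alternatives). Of 16 genes of glycolysis and lactate export 2 were called (12.5%, beside 10.7% of all genes). Both fell, Slc16a3 and the glucose transporter Slc2a1 (-0.70), and the list median was -0.13. The Slc2a1 call was lost under 6 of 18 alternatives, and the count was 1 without replicate 27, 30, 43, 44 or 47.

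C cells, which secrete calcitonin and lie between the follicles, are marked by neuroendocrine granule genes, and 7 of 14 such markers fell (median -1.19) with 0 higher. Calcb was at 11.43, 11.44 and 11.03 in controls and 9.13, 9.90 and 9.08 in the combined group, a fall of 1.93 (SE 0.44, limma adjusted p 0.00763). Scg2, a secretogranin, was at 9.56, 10.44 and 10.11 in controls and 7.56, 7.87 and 8.23 in the combined group, a fall of 2.15, and the prohormone convertase Pcsk2 fell by 1.78 (limma adjusted p 0.0167 and 0.013). Calca, the calcitonin gene itself, was at 13.69, 13.78 and 13.45 in controls and 13.10, 13.64 and 13.24 in the combined group. Those values overlapped, and the difference of -0.31 was not called.

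The C cell sum was 40600 to 51400 in controls and 20400 to 34100 in the combined group. Parathyroid genes were lower with it: Casr, the calcium-sensing receptor, which both cell types express, fell by 1.81 (limma adjusted p 0.00781), and Pth, parathyroid hormone, differed by -0.38 without being called, with 14.02, 13.96 and 14.07 in controls and 13.49, 13.94 and 13.47 in the combined group. Pth was thus bright in every array of both groups. Replicate 29 had the highest Calcb, Pcsk2, Casr and Pth of the combined arrays. The number of C cell genes called was 1 without replicate 27 or replicate 44, 2 without replicate 30 and 4 without replicate 43. The part of dissected tissue in these falls was not tested.

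**Figure D4:**
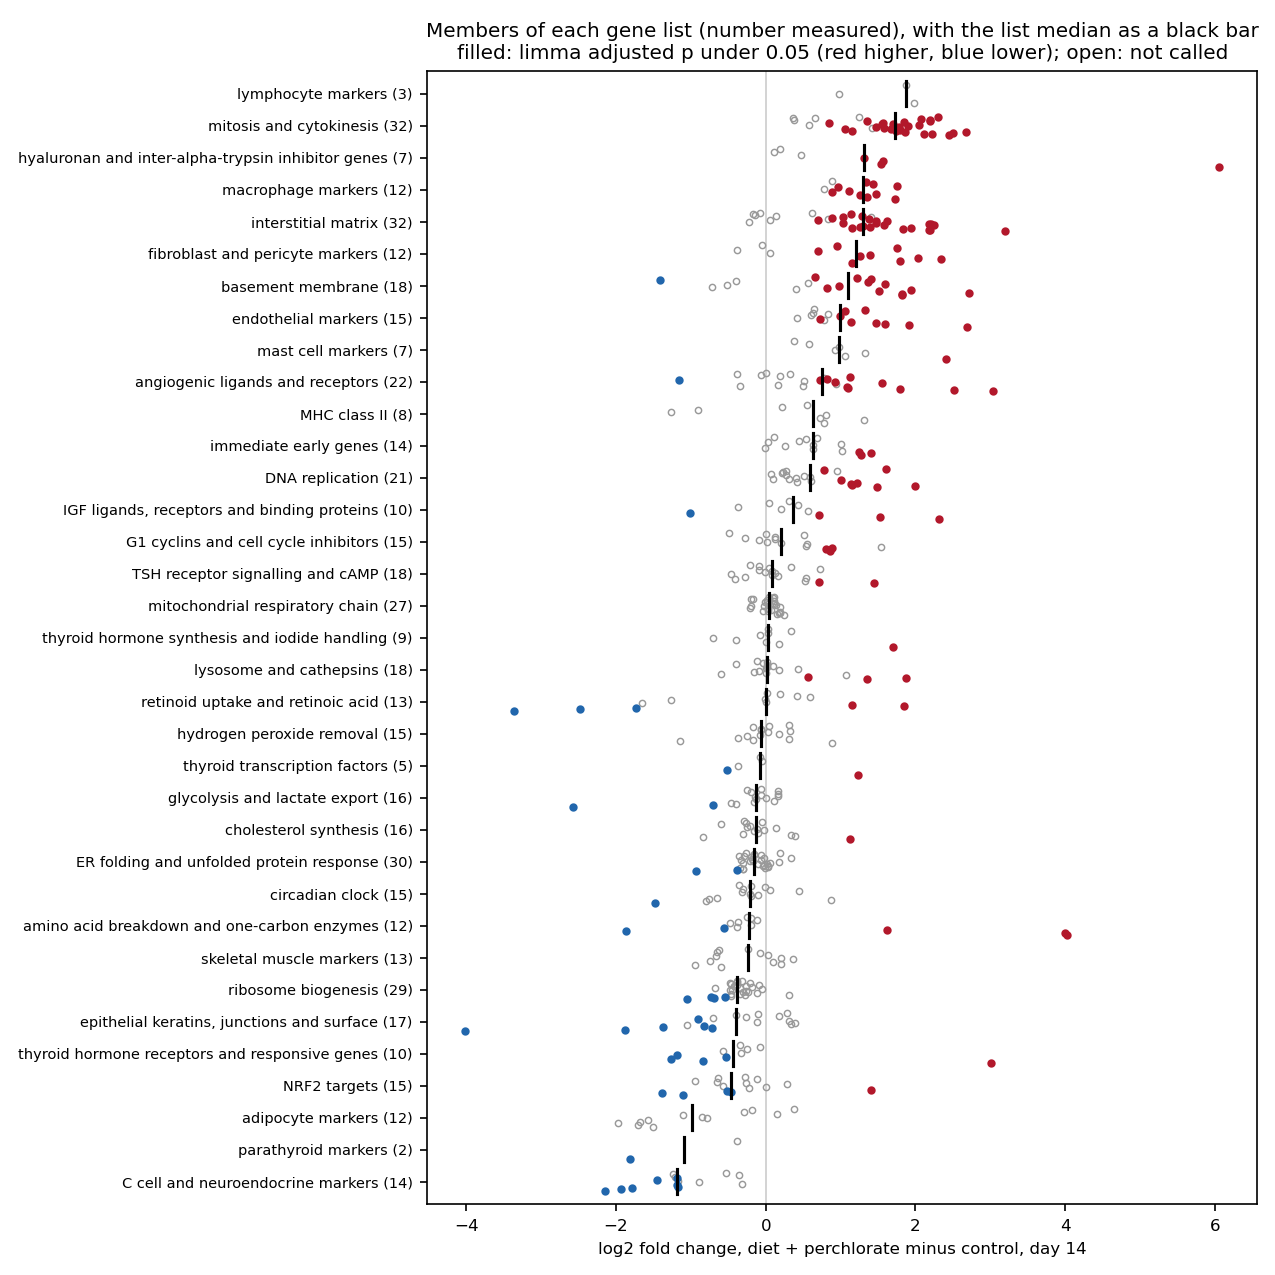
Log2 fold change of every measured member of 35 gene lists between the combined group and the controls (x axis), with lists ordered by their median (black bar) and the number measured in parentheses. Filled points were called (red higher, blue lower) and open points were not. Mitosis, macrophage, matrix and endothelial genes lie mainly above 0, C cell genes all lie below 0, and respiratory chain genes stay within 0.3 of 0.

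None of 27 respiratory chain subunits was called by limma (median 0.05, the largest difference being Uqcrfs1 at 0.24). No member was called under any alternative in which the list was counted, which leaves out averaging of probe sets. Of 30 endoplasmic reticulum folding genes 2 were called (6.67%, beside 10.7% of all genes). Both fell, Herpud1 by 0.93 and Derl1 by 0.38, and the Herpud1 arrays overlapped. These calls were lost under 9 and 10 of 18 alternatives, and the count was 0 without replicate 29, 30, 44 or 47 and 1 without replicate 27. Of 29 ribosome biogenesis genes 4 fell and 0 rose (median -0.38), led by Polr1b, a subunit of RNA polymerase I, at -1.05 (limma adjusted p 0.000212), and 28 of the 29 differences were negative. That number of falls was 1 without replicate 27, 30 or 43 and 2 without 44 or 47, and it was 9 with only these 6 arrays in the fit.

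Among targets of the NRF2 factor, which drives antioxidant genes, 4 of 15 fell and 1 rose (median -0.47). Nqo1, a quinone reductase, was at 10.97, 10.69 and 11.01 in controls and 9.35, 9.04 and 10.13 in the combined group, a fall of 1.38 (SE 0.29, limma adjusted p 0.00365), and the glutathione synthesis enzyme Gclc fell by 1.11. Akr1b8 rose by 1.40, a call lost under 4 of 17 alternatives, those without replicate 27, 30, 43 or 44. The number of falls was 2 without replicate 30 or replicate 43. None of 15 genes that remove hydrogen peroxide was called by limma, and the nearest was Gpx3 at 0.88 (limma adjusted p 0.0577). In cholesterol synthesis 1 of 16 was called, Stard4 at 1.12. Among 15 clock genes Hlf, a clock output factor, fell by 1.48 (limma adjusted p 0.00102), and the core clock genes Per2 (0.88) and Nr1d1 (-0.80) were not called.

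The combined treatment was next set against each treatment alone, with direct contrasts at day 14. These contrasts and the one against controls use the same combined arrays, so their values are given side by side. Against perchlorate alone, 1 of 18625 probe sets was called (0.00537%), a second probe set of Pkp4 that was lower by 1.77 (limma adjusted p 0.0261), and this call was lost without any 1 of the 6 arrays. By gene limma called 0 of 10643, with 304 at an unadjusted p under 0.05. The perchlorate arrays were uneven in skeletal muscle markers, whose sums were 4587, 6589 and 25730 in replicates 39, 40 and 42. The part of this spread in the contrast was not tested. Crym was 2.49 higher than with perchlorate alone (95% interval 1.33 to 3.64, limma adjusted p 0.558), with 10.51, 9.94 and 10.52 against 8.27, 8.46 and 6.78. The arrays did not overlap, and the difference did not pass the test.

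Igfbp3 was 1.58 higher than with perchlorate alone (interval 0.88 to 2.28, limma adjusted p 0.558). Itih3 differed by 0.66 (0.07 to 1.25), Uroc1 by 1.88 (0.80 to 2.95) and Slc5a5 by 0.185 (-0.205 to 0.575). None of these genes was called against perchlorate alone. The intervals are not adjusted for the number of tests, and Itih3 and Uroc1 were named for large rises in the same combined arrays. The intervals leave room for differences of more than 2-fold for Itih3 and Uroc1 and for less than 2-fold for Slc5a5.

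Against the deficient diet alone, 39 probe sets were called (0.209%), 24 higher (0.129%) and 15 lower (0.0805%). By gene the count was 26 of 10643 (0.244%), 18 higher (0.169%) and 8 lower (0.0752%). Itih3 was at 11.20, 11.65 and 10.25 with the diet alone, so that the combined group was 2.25 higher (SE 0.28, limma adjusted p 0.000825). Defb1 was at 7.67, 8.35 and 8.56 with the diet alone, and the combined group differed by -3.445 (SE 0.43, limma adjusted p 0.000825). In neither gene did the arrays overlap. Crym was 2.80 higher, Cthrc1 2.35, Sstr1 2.14, Igfbp3 1.80 and Ccn5, a matricellular protein of the CCN family, 1.69 (limma adjusted p 0.0371, 0.014, 0.0376, 0.0257 and 0.0219).

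Lower than with the diet alone were also Gna14 (-1.61), the chemokine Cxcl14 (-1.515), Shmt1 (-1.40), the selenium-binding protein Selenbp1 (-1.40) and Hlf (-1.27), with limma adjusted p of 0.0228, 0.0318, 0.014, 0.0141 and 0.0429. Slc5a5 differed by 0.69 (interval 0.30 to 1.08) and was not called. The number of probe sets called was 3 without replicate 27, 3 without replicate 30, 2 without diet replicate 32 and 3 without diet replicate 34. It was 33 without replicate 29 and 28 without diet replicate 33.

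**Figure D5:**
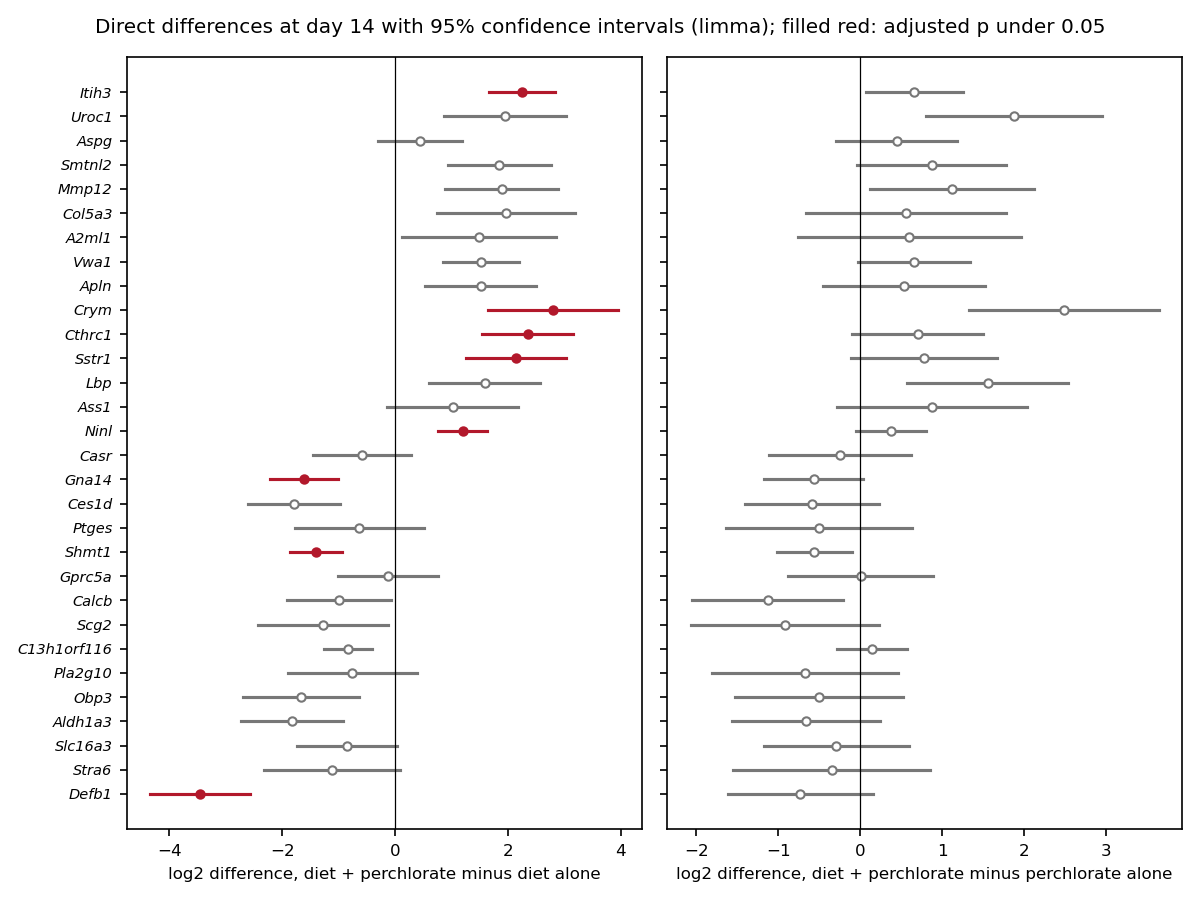
Direct log2 differences of the combined group from the diet alone (left) and from perchlorate alone (right) at day 14, for the 15 largest rises and 15 largest falls against controls, as points with 95% confidence intervals from limma. The genes were chosen by their difference from controls, and the intervals are not adjusted for the number of tests. Filled red points passed an adjusted p of 0.05: 8 genes on the left, among them Itih3 and Defb1, and none on the right.

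The order of the 4 group means at day 14 was also read, as a description. All 32 mitosis genes had their highest mean in the combined group and their lowest in controls, beside 26% and 28.5% of all 10643 genes. For DNA replication the combined group was highest in 19 of 21, for interstitial matrix in 22 of 32, for macrophage markers in 11 of 12 and for endothelial markers in 10 of 15. C cell markers had their lowest mean in the combined group in 12 of 14 and ribosome biogenesis genes in 20 of 29, beside 35% of all genes. The direct differences within these lists were not called against perchlorate alone.

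Lastly, the effect at day 14 was compared with that of the same treatment at day 1, when rats had eaten the diet for 2 months and 1 day and drunk perchlorate for 1 day. The difference between the days was called for 0 of 18625 probe sets by limma, with 1625 at an unadjusted p under 0.05. Itih3 was nearest, with an effect 2.32 larger at day 14 (SE 0.40, limma adjusted p 0.0629). At day 1 it was already at 10.17, 10.89 and 11.19 in the combined group against 6.96, 6.88 and 7.19 in controls.

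Sparc, a collagen-binding matrix protein, gave 1.69, Igfbp2 1.87 and Col3a1 1.27 at the same adjusted p, and Cthrc1 gave 2.94 (limma adjusted p 0.0637). Slc5a5 gave 0.51 (interval -0.04 to 1.06). Without day 1 combined replicate 3 the number of probe sets called was 77, and without day 14 combined replicate 29 it was 14. The remaining 10 omissions of 1 array each gave 0.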

How the data were processed

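RNA from thyroids was hybridised to 24 Affymetrix arrays in 8 groups of 3, with groups and replicate numbers taken from titles. The deposited values are linear intensity per probe set, made by the authors with GCOS, per the submitters' processing notes. Its version, scaling target and genome build are not given in the sources used here, so scale and centring stay unknown. Median intensities were 105.6, 117.4 and 97.33 in the combined arrays, 97.07, 118.3 and 94.13 in controls, and 83.27 to 130.1 over all 24. The number of arrays limits precision.

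The 57 control probe sets were left out of 31099. Values were transformed as log2(intensity + 16) and quantile normalized, and probe sets under the 40th percentile of mean level (6.19) were left out, leaving 18625. limma 3.58.1 in R 4.3.3 was fitted with a mean for each of the 8 groups, with eBayes (trend) and two-sided tests in 4 comparisons. The script was tested on simulated data. The platform annotation gave 1 symbol to 20826 probe sets, several to 436 and none to 9780, and 20758 matched RefSeq (GRCr8).

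The arrays, gene lists (36 lists, 652 genes, 527 measured) and tests were chosen with earlier results of these data known. Named genes are the 15 largest rises and falls without overlap, the 6 largest called each way in the other comparisons, all hormone synthesis genes and up to 5 of each list with the smallest p. Others, such as Mki67, Ttk, Spc25, Lamb3, Calca, Angpt4 and the receptors Flt1, Kdr, Tek and Nrp2, were chosen after their values were seen. Alternatives covered normalization, pseudocount, filter, arrays in the fit, array weights, robust eBayes, averaging of probe sets and leaving out each array.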

Additional observations from a re-analysis of the deposited data

How the results depend on the processing

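Depth is unknown for arrays, and signal over background was not measured, and the sizes and ranks of dim genes such as Defb1, Aspg and Uroc1 move with the pseudocount. No paired analysis was possible because the groups compared share no replicate numbers. Against controls, the main counts were 1649 probe sets and 1142 genes (69.0% of calls higher). With only these groups fitted they were 3199 and 2154 (57.4% higher), with the 4 groups of day 14 they were 3658 and 2439 (54.2%), without the 2 day 1 arrays that stand apart 3275 and 2193 (53.8%), and with array weights, whose fit did not reach its tolerance for some probe sets, 4371 and 2854 (50.4%). The cause was not tested. As deposited, 78.7% of 1163 calls were higher. Leaving out 1 array gave 815 to 1358 probe sets and 567 to 945 genes. Against perchlorate alone the counts were 0 probe sets as deposited, 4 (2 genes) with array weights and 0 to 0 with 1 array left out.

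Against the diet alone the counts were 23 probe sets and 15 genes as deposited (30.4% higher, against 61.5%), 19 and 13 without the filter, and 26 probe sets and 17 genes at the 60th percentile. They were 338 and 243 with only these groups, 298 and 215 with day 14 alone, 169 and 118 without the 2 apart arrays, 961 and 648 with array weights, and 2 to 33 probe sets (2 to 24 genes) with 1 array left out. For the difference between days, array weights gave 407 probe sets and 288 genes, averaging of probe sets 9 genes, and leaving out 1 array 0 to 77 probe sets and 0 to 59 genes.

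Of 121 called named genes 79 held under every alternative run, 18 were lost under 1 to 3 and 24 under more. Of 70 uncalled, 40 were called under some alternative. The sign of uncalled genes turned in these cases: Tshr (-0.01 median-centred, -0.166 to 0.279 with 1 array left out, negative without replicates 27, 30 and 47), Ano1 (-0.031 with weights, -0.091 to 0.128, negative without 29 and 43), Kcnq1 (-0.122 with weights, -0.272 to 0.291, negative without 27 and 43), Dio1 (-0.024 to 0.717, negative without 27), Iyd (-0.156 to 0.001, positive without 30), Pax8 (-0.115 to 0.005, positive without 44) and Hhex (-0.157 to 0.054, positive without 47). With probe sets averaged, Tg gave -0.102, RT1-Bb 0.45 and Myh1 -0.101.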

Other observations

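Tissue around the gland was read from 2 further lists. Of 12 adipocyte markers limma called 0, with a median of -0.98, and 9 had no overlap between the groups, beside 36.9% of all probe sets tested: Adipoq, the adipocyte hormone adiponectin, was at 9.54, 10.35 and 9.62 in controls and 8.78, 7.77 and 7.91 in the combined group. The difference of -1.68 did not pass the test (limma adjusted p 0.223). With only the groups compared in the fit, 7 of the 12 adipocyte markers were called lower. The number was 2 with the 4 groups of day 14, 3 with array weights and 0 without the 2 day 1 arrays that stand apart. The summed adipocyte intensity was 4390 to 8570 in controls and 2700 to 3920 in the combined group. Of 13 skeletal muscle markers limma called 0, the median was -0.23, and their sums were 6020 to 8140 and 6090 to 8370. Muscle sums were less even in the groups used for reference. They were 4590 to 25700 with perchlorate alone and 7420 to 26800 with the diet alone at day 14. At day 1 they were 7220 to 44100 in the combined group and 7770 to 32400 in controls. The part of this spread in the direct contrasts was not tested.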
